A study of Homo sapiens with 16 samples.

Results

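The 37 genes described here encode parts of the lysosome and of the autophagy machinery that delivers cargo to it, and all 37 were found by symbol among the 60719 genes in the count tables. They comprised 6 lysosomal membrane proteins, 6 proteases, 13 glycosidases, sulfatases and lipid-degrading proteins, 4 subunits of the V-ATPase, 5 autophagy proteins and the 3 MiT/TFE transcription factors TFEB, TFE3 and MITF. RNA was sequenced from the human cell line MDA-MB-231, which was derived from triple-negative breast cancer, either unedited (parental 231) or with TXNIP deleted by CRISPR/Cas9 (231:TKO). Parental 231 (n = 2) and 231:TKO (n = 2) cells were untreated, and both populations were also treated for 48 hours with a non-targeting siRNA (siNT) or with an siRNA against Myc (siMyc), giving parental 231+siNT, parental 231+siMyc, 231:TKO+siNT and 231:TKO+siMyc (n = 3 each). The knockout cells were isolated from single cells, so an effect of the knockout cannot be told apart from a property of the cells that were isolated. Because these are bulk samples, fewer cells expressing a gene and less RNA per cell cannot be told apart either.

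Lysosomes are acidic organelles in which hydrolases break down proteins, glycans and lipids, and the V-ATPase pumps in the protons that keep them acidic. TFEB, TFE3 and MITF are basic helix-loop-helix leucine zipper proteins that activate lysosomal and autophagy genes through E-boxes, and they are held in the cytoplasm by mTORC1 when nutrients are plentiful. Myc, with its partner Max, is a transcription factor of the same broad family that also binds the E-box CACGTG, and it has been proposed to oppose TFEB and TFE3 at these genes. TXNIP is an arrestin-like protein that limits glucose uptake.

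Total counts ranged from 18953668 to 59799444 per library, and levels are given as CPM, counts scaled to the normalized size of each of the 16 libraries. MYC was at 121 to 144 CPM in the 231:TKO+siNT libraries and at 58.1 to 58.8 CPM after siMyc, and at 127 to 132 and 64.5 to 67.6 CPM in the parental 231 libraries. TXNIP was at 302 to 323 CPM in parental 231+siNT and at 6.54 to 7.92 CPM in 231:TKO+siNT, whereas the untreated 231:TKO libraries differed from each other, at 12.4 and 45.5 CPM against 283 CPM in both untreated parental libraries. VIM, CD44, AXL and CAV1, which mark this mesenchymal line, summed to 4322 to 7784 CPM, and ESR1 and PGR did not exceed 0.305 CPM in any library. Of the other genes taken as lacking in this line, EPCAM was at 12.2 to 31.3 CPM and GATA3 at 11.6 to 30.7 CPM. TYROBP was at 0 in every library, and the 4 macrophage markers summed to 7.27 to 31.3 CPM, mostly CSF1R and CD14. Parental 231+siNT replicate 1 and parental 231+siMyc replicate 3 stood apart from their groups in the same direction (r = 0.93 across 10959 genes between their deviations from the group means). The responses to siMyc in parental 231, and their difference from those in 231:TKO, are therefore given with and without a factor for these 2 libraries. Comparisons of 231:TKO+siNT with parental 231+siNT were fitted without it. Counting used single reads for the untreated and read pairs for the siRNA libraries, and the siRNA libraries of 231:TKO and of parental 231 came from separate sequencing requests and were counted with different Ensembl releases.

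RefSeq promoters (GRCh38.p14, 250 bases before to 50 after the start of the gene, first entry listed for each gene) were found for 27 of the 37 genes. They were searched on both strands for the E-box CACGTG and for TCACGTGA, the E-box with the flanks found in the CLEAR element that is bound by TFEB. Each motif is its own reverse complement, and the longer contains the shorter. CACGTG was found in 9 of the 27 promoters (33.3%) and TCACGTGA in 6 (22.2%), against 7.43% and 1.04% of all 27305 genes in the table, and against 10.1% and 2.01% of the 10309 genes that were above 1 CPM in the 231:TKO siRNA libraries. Of 111 promoters found for further genes of the same pathways, described below, 18.9% held CACGTG and 9.01% held TCACGTGA. The 6 promoters with TCACGTGA are shown because they hold the E-box letters together with those flanks. A match is a description of the letters and not of binding. They are those of LAMP1 (chr13:113296989-113297288, + strand), MCOLN1 (chr19:7522374-7522673, + strand), CTSA (chr20:45891085-45891384, + strand), GAA (chr17:80101331-80101630, + strand), GALNS (chr16:88856898-88857197, - strand) and ATP6V0D1 (chr16:67481108-67481407, - strand). The sequences are written 5′ to 3′ on the strand of the gene, and capitals mark each CACGTG:
LAMP1: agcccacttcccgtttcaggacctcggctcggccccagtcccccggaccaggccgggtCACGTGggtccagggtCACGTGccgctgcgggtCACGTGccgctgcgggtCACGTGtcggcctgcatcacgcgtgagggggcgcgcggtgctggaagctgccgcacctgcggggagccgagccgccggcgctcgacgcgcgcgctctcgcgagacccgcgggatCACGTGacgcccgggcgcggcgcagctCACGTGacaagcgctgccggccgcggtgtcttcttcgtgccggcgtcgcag
MCOLN1: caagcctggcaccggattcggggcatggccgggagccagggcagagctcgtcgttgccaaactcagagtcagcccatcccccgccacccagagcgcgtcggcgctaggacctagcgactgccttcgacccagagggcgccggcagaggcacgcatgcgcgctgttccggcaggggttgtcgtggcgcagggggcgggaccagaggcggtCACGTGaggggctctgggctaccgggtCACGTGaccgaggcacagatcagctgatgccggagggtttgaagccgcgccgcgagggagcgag
CTSA: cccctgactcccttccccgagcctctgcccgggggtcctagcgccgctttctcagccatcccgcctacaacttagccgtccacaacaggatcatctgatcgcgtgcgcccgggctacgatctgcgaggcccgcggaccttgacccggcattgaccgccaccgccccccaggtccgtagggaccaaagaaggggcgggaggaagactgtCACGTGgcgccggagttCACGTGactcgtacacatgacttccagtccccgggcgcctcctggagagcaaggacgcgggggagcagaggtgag
GAA: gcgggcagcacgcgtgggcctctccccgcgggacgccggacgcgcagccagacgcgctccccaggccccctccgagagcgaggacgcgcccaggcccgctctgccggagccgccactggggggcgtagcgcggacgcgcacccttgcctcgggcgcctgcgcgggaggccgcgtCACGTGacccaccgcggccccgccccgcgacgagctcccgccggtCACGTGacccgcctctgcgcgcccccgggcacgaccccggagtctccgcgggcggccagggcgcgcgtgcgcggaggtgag
GALNS: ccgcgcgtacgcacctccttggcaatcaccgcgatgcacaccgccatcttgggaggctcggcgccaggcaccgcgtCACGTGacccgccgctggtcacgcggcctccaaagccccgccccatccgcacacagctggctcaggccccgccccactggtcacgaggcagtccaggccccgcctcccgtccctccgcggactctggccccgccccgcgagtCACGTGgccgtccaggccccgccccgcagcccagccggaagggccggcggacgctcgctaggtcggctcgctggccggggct
ATP6V0D1: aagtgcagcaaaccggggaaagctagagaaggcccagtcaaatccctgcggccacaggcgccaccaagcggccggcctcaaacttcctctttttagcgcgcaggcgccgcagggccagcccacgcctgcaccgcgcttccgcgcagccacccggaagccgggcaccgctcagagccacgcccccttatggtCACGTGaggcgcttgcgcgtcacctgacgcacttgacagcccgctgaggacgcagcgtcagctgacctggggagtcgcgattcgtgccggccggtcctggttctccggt

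LAMP1 held 6 E-boxes, MCOLN1, CTSA, GAA and GALNS held 2 each, and ATP6V0D1 held 1. CTSD, NEU1 and CD63 had 1 CACGTG each without the longer flanks, and no CACGTG was found in the promoters used for FUCA1, TPP1, GLA, SQSTM1, TFEB or MITF.

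The first question was how these genes responded to a reduction of Myc in TXNIP-deleted cells. Knockdown of Myc raised lysosomal genes of nearly every kind in these cells: relative to 231:TKO+siNT, 30 of the 37 were higher in 231:TKO+siMyc and 1, GLA, was lower at an adjusted p-value of 0.05 or less (edgeR quasi-likelihood test with Benjamini-Hochberg adjustment over 22450 genes), whereas 13.3% of all genes tested were higher and 13.9% lower. The median log2 fold change was 0.33 over the 37 genes and 0.0069 over all genes tested, and 35 of the 37 were above 0 against 50.8% of all genes. In 32 genes every 231:TKO+siMyc library was above every 231:TKO+siNT library, a separation seen in 18.9% of all genes, and in 1 gene every one was below, against 19.8%. Of the 30 genes that were higher, 25 changed by less than 0.5 on the log2 scale, and the largest change was 1.58-fold. In the joint fit of all 12 siRNA libraries, which calls fewer genes (5.28% higher and 4.38% lower), 27 of the 37 were higher and 0 lower. The 37 genes together took 1.10% ± 0.0289 (SD, n = 3) of all counts in 231:TKO+siNT and 1.44% ± 0.0323 (SD, n = 3) in 231:TKO+siMyc. Macrophages are rich in lysosomes, and their 4 markers summed to 12.3 to 12.5 CPM in 231:TKO+siNT and to 16.02 to 19.57 CPM in 231:TKO+siMyc, with TYROBP at 0 in every library and PTPRC at no more than 0.0540 CPM in these.

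**Figure D1:**
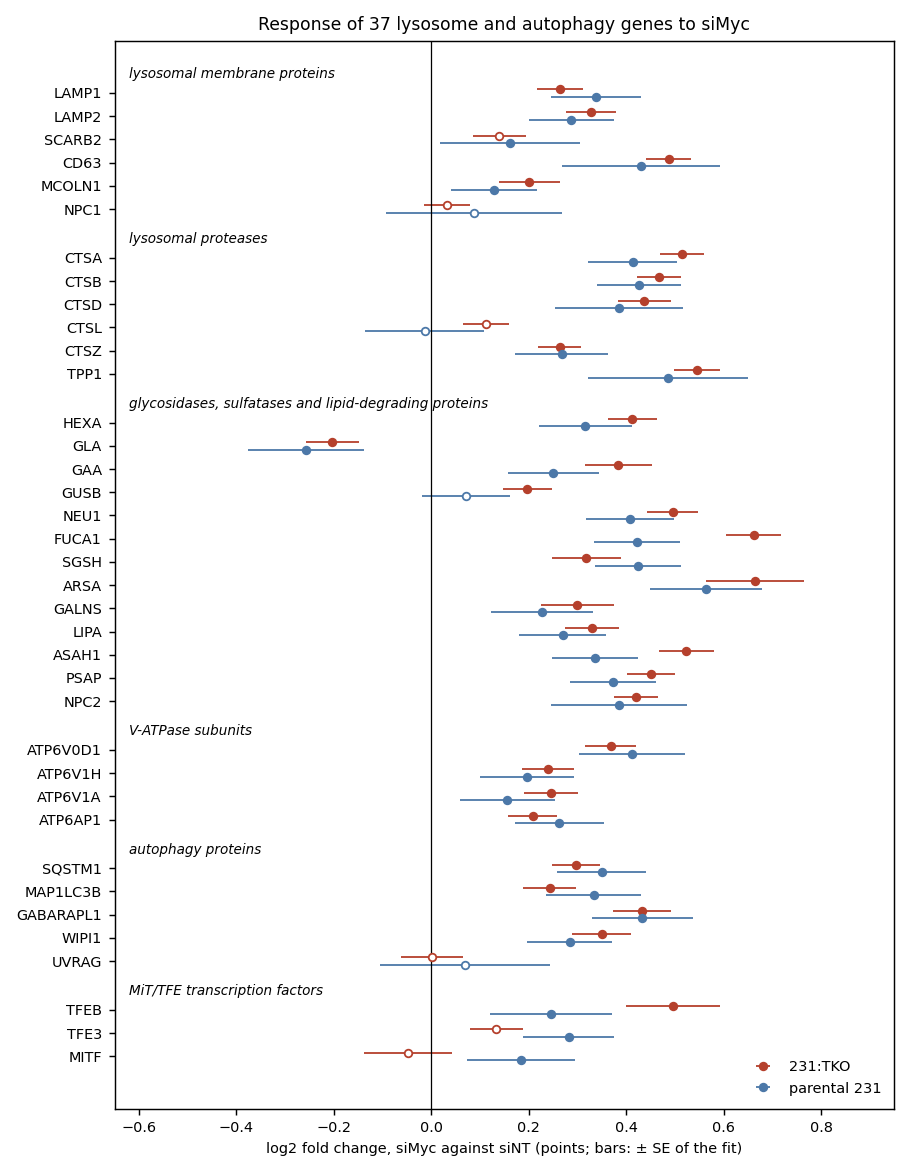
Log2 fold change (x axis) of each of the 37 genes (rows, by role) in siMyc against siNT libraries of 231:TKO (red) and parental 231 (blue), with bars of ± 1 SE from the fit without a factor. Filled points passed an adjusted p-value of 0.05, for parental 231 in the fit with a factor for 2 libraries, since 0 of the 37 passed without it; 34 genes lie above 0 in both populations and GLA lies below 0 in both.

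Among the hydrolases, 12 of 13 glycosidases, sulfatases and lipid-degrading proteins were higher, with a median log2 fold change of 0.41. FUCA1, the lysosomal α-fucosidase, was at 48.9, 53.9 and 48.3 CPM in the 231:TKO+siNT libraries and at 80.0, 79.5 and 85.1 CPM in the 231:TKO+siMyc libraries. The groups lay far apart, and its log2 fold change was 0.66 ± 0.0569 (SE, n = 3 against 3, adjusted p = 2.16e-08 by edgeR). ARSA, the arylsulfatase that degrades sulfatide, changed as much from a lower level, from 7.49, 9.27 and 7.90 to 14.6, 13.8 and 11.6 CPM (0.66 ± 0.101). NEU1, a sialidase, rose from 248, 280 and 252 to 381, 384 and 360 CPM (0.50 ± 0.0525). ASAH1, the acid ceramidase, rose by 0.52 ± 0.0567. PSAP, the precursor of the saposins that present lipids to hydrolases, was the most abundant of the 37 and rose from 1623, 1820 and 1658 CPM to 2437, 2383 and 2315 CPM (0.45 ± 0.0484). NPC2, which binds cholesterol inside the lysosome, rose by 0.42 ± 0.0443, HEXA by 0.41 ± 0.0497, GAA by 0.38 ± 0.0692, LIPA by 0.33 ± 0.0546, SGSH by 0.32 ± 0.0714, GALNS by 0.30 ± 0.0750 and GUSB by 0.20 ± 0.0504. GLA, the α-galactosidase, was the exception. It was at 73.1, 73.0 and 69.3 CPM in 231:TKO+siNT and at 62.0, 65.8 and 63.8 CPM in 231:TKO+siMyc, groups that did not overlap (log2 fold change -0.20 ± 0.0548, adjusted p = 0.00742 by edgeR).

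Proteases behaved alike, with 5 of 6 higher and a median of 0.45. TPP1, a tripeptidyl peptidase, was at 145, 152 and 155 CPM in 231:TKO+siNT and at 222, 222 and 231 CPM in 231:TKO+siMyc (0.55 ± 0.0474). CTSA, the protective protein of NEU1, was at 398, 403 and 393 CPM and then at 586, 591 and 570 CPM (0.51 ± 0.0452). Neither pair of groups overlapped. The aspartic protease CTSD was higher by 0.44 ± 0.0538, the cysteine proteases CTSB and CTSZ by 0.47 ± 0.0450 and 0.26 ± 0.0445, and CTSL had a value of 0.11 ± 0.0470 that did not pass (adjusted p = 0.0874 by edgeR). Of the membrane proteins, the tetraspanin CD63 (0.49 ± 0.0457), the abundant glycoproteins LAMP2 (0.33 ± 0.0509) and LAMP1 (0.26 ± 0.0464) and the calcium channel MCOLN1 (0.20 ± 0.0622) were higher. MCOLN1 did not pass without replicate 1 or 2 of 231:TKO+siMyc or replicate 1 or 3 of 231:TKO+siNT (0.16 to 0.19, adjusted p = 0.0877 to 0.102 by edgeR). SCARB2, the receptor that carries glucocerebrosidase to lysosomes, had a value of 0.14 ± 0.0540 (adjusted p = 0.0614 by edgeR), and the cholesterol transporter NPC1 one of 0.03 ± 0.0464.

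All 4 V-ATPase subunits were higher, by 0.37 ± 0.0525 for ATP6V0D1, 0.25 ± 0.0557 for ATP6V1A, 0.24 ± 0.0539 for ATP6V1H and 0.21 ± 0.0505 for ATP6AP1. So were 4 of the 5 autophagy proteins. GABARAPL1, which is conjugated to autophagosome membranes, rose from 27.5, 28.4 and 28.9 CPM to 39.3, 37.7 and 40.3 CPM (0.43 ± 0.0599). WIPI1, which binds phosphoinositides on forming autophagosomes, rose by 0.35 ± 0.0612, the cargo receptor SQSTM1 by 0.30 ± 0.0487 and MAP1LC3B by 0.24 ± 0.0538, while UVRAG, a regulator of the lipid kinase VPS34, stood at 0.00 ± 0.0635.

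**Figure D2:**
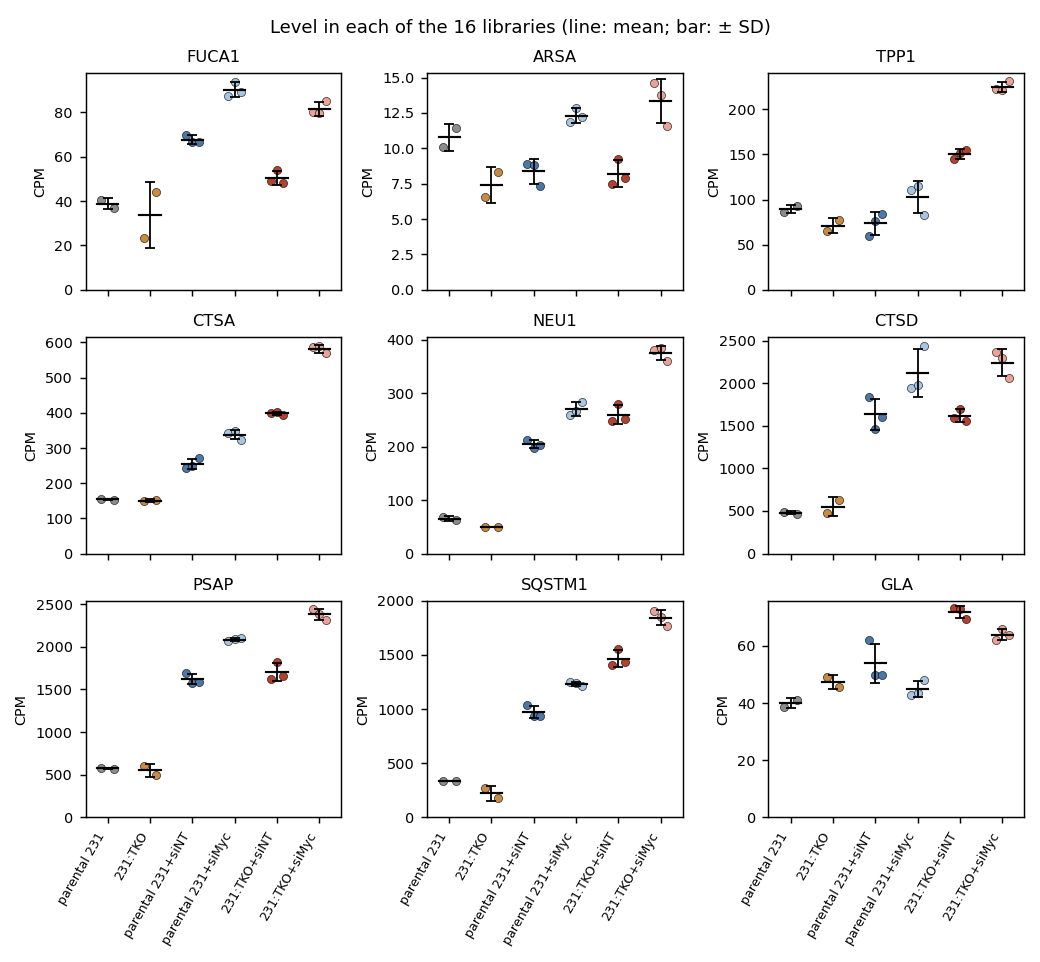
Level in CPM (y axes, starting at 0) of 9 of the genes in each of the 16 libraries, with the mean (line) and SD (bar) of each of the 6 groups. In FUCA1, ARSA, TPP1, CTSA, NEU1, CTSD, PSAP and SQSTM1 the 3 231:TKO+siMyc libraries lie above the 3 231:TKO+siNT libraries, and in GLA they lie below them.

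The same knockdown in parental 231 cells gave changes of like size that were estimated with more error. The median log2 fold change of the 37 genes was 0.29, against -0.0016 over the 23728 genes tested, and 35 of the 37 were again above 0 against 49.8% of all genes. None of the 37 passed an adjusted p-value of 0.05 in the edgeR test, in which only 0.594% of all genes passed. By direction, 0.24% of all genes were higher and 0.354% lower. The DESeq2 Wald test called 14 of the 37 higher and 0 lower (2.02% and 2.66% of all genes), and the joint fit of all 12 siRNA libraries called 21 higher and 0 lower (2.8% and 3.65%). With a factor for the 2 libraries that stood apart, 32 of the 37 were higher and GLA was lower, against 13.7% and 13.1% of all genes, and with those libraries left out 30 were higher and GLA was lower (9.94% and 10.9% of all genes). The factor was added after the data had been seen. Without any model, 26 genes had all parental 231+siMyc libraries above all parental 231+siNT libraries and 1 had them below, against 10.2% and 11.1% of all genes. The macrophage markers summed to 19.5 to 24.4 CPM in parental 231+siNT and to 27.2 to 31.3 CPM in parental 231+siMyc, and the part of this in the result was not tested.

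FUCA1 was at 69.9, 66.7 and 66.4 CPM in parental 231+siNT and at 87.2, 93.8 and 89.3 CPM in parental 231+siMyc (0.42 ± 0.0880, adjusted p = 0.0778 by edgeR and 8.89e-11 with the factor). ARSA went from 8.92, 8.86 and 7.37 to 11.9, 12.9 and 12.2 CPM (0.56 ± 0.115). CTSB went from 500, 494 and 507 to 684, 677 and 644 CPM (0.43 ± 0.0856). In all of these the groups were apart in every library. TPP1 shows what the 2 unusual libraries did: it was at 59.9, 76.7 and 84.5 CPM in parental 231+siNT and at 110, 115 and 82.8 CPM in parental 231+siMyc, so that replicate 1 of the first and replicate 3 of the second were each the lowest of their group and the groups overlapped (0.49 ± 0.164, adjusted p = 0.219 by edgeR and 1.68e-12 with the factor). CD63 differed the other way in the same libraries, at 665 CPM in replicate 1 of parental 231+siNT against 466 and 490 CPM, and at 840 CPM in replicate 3 of parental 231+siMyc against 655 and 677 CPM. GLA was lower here too, from 61.9, 49.7 and 49.9 to 42.8, 43.7 and 48.0 CPM (-0.26 ± 0.119, adjusted p = 0.375 by edgeR and 3.79e-05 with the factor). NPC1, CTSL, GUSB and UVRAG did not pass in the fit with the factor.

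The responses to siMyc in the 2 cell populations were then compared gene by gene. Calls came from the separate fit of each population, and correlations from those fits without the factor. The difference between the responses was tested with all 12 siRNA libraries fitted together. Among the 37 genes, 29 were higher after siMyc in 231:TKO and also in parental 231 in the fit with the factor, 1 was lower in both, 1 (GUSB) was called only in 231:TKO, 3 (SCARB2, TFE3 and MITF) only in parental 231, and NPC1, CTSL and UVRAG in neither. Taken singly, these fits called 13.3% of all genes higher and 13.9% lower in 231:TKO, and 13.7% and 13.1% in parental 231. The share of all genes called in both was not computed, so these counts describe the members alone. The responses rose and fell together across the 37 genes (Pearson r = 0.85, Spearman rho = 0.81), which is given as a description, since the genes of one library share its depth and normalization. Of the 37 genes 0, and 0% of the 25812 genes, passed the edgeR test of the difference between the responses, with 1 member and 1039 genes at an unadjusted p-value under 0.05. DESeq2 called 0 members and 6 genes (0.0232%). The median difference over the 37 genes, 231:TKO minus parental 231, was 0.08, against 0.03 over all genes, and it was -0.00059 when the 2 libraries that stood apart were left out. TFEB had the largest difference, 0.28 ± 0.164, followed by FUCA1 at 0.27 ± 0.112 and ASAH1 at 0.22 ± 0.117. These standard errors leave room for differences of that size, so the data do not show that the populations responded alike. In the fit with the factor, in which 0.57% of all genes passed, FUCA1 had an adjusted p-value of 0.0845 by edgeR and 0 members passed, as without those libraries (0.252% of all genes).

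**Figure D3:**
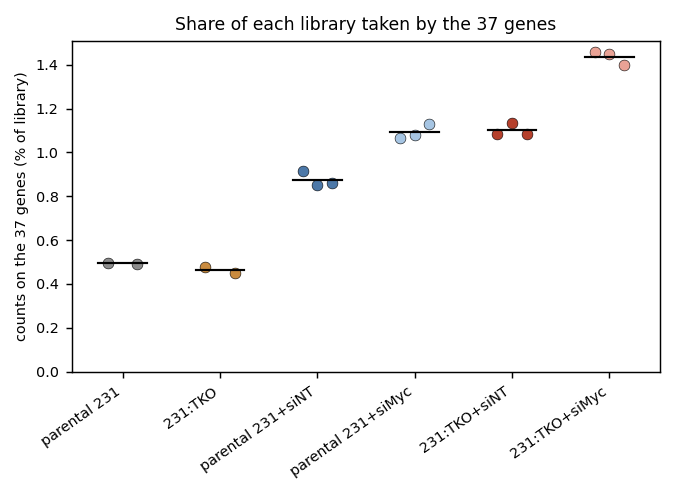
Share of all counts taken by the 37 genes (y axis, % of the library, starting at 0) in each of the 16 libraries, with group means as lines. The siMyc libraries lie above the siNT libraries of the same cells, at 1.44% against 1.10% in 231:TKO and 1.09% against 0.875% in parental 231, and the untreated libraries lie at 0.450% to 0.498%.

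A further 138 genes of the same pathways, in 7 lists, were examined, of which 71 were higher and 10 lower after siMyc in 231:TKO, with a median of 0.19. These counts and those of each list stand beside 13.3% of all genes higher and 13.9% lower. Of other lysosomal hydrolases, 21 of 32 were higher and 4 lower, with a median of 0.25, and of other lysosomal membrane proteins 13 of 18 were higher and 1 lower, with a median of 0.34. CTSO, a cysteine protease, had the largest change among the hydrolases, from 7.22 ± 0.316 to 14.1 ± 1.18 CPM (SD, n = 3, log2 fold change 0.96 ± 0.0888), and the sialic acid transporter SLC17A5 the largest among the membrane proteins (0.62 ± 0.0475). CTSF was higher by 0.69 ± 0.0644, whereas CTSC, which activates granule serine proteases, was lower, from 95.0 ± 2.75 to 65.9 ± 4.34 CPM (-0.53 ± 0.0571). Of the other V-ATPase subunits, 11 of 21 were higher and ATP6V0A2, the form of the a subunit found in the Golgi, was lower (-0.42 ± 0.0638). Of 33 autophagosome formation genes, 9 were higher and 2 lower, with a median of 0.09. The higher ones included the ubiquitin-like proteins MAP1LC3A (0.71 ± 0.110) and GABARAP (0.47 ± 0.0586), and ATG16L1, part of the complex that lipidates them, was lower (-0.21 ± 0.0617). Among cargo receptors 5 of 8 were higher, led by NBR1 (0.40 ± 0.0488) and OPTN (0.34 ± 0.0447), and BNIP3, a mitophagy receptor, was lower (-0.23 ± 0.0568). Among the Rag GTPases, folliculin and other regulators that control TFEB and TFE3 through mTORC1, 8 of 20 were higher and 1 lower. Of 6 genes for sorting of hydrolases to lysosomes, mostly by a mannose 6-phosphate tag, 4 were higher, led by GNPTG (0.49 ± 0.0634), a subunit of the enzyme that adds the tag.

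In parental 231 the corresponding counts were 2 of 138 higher, CTSO (0.88 ± 0.116) and the acid sphingomyelinase SMPD1 (0.57 ± 0.0881), and with the factor 74 higher and 7 lower. Without the factor, other lysosomal membrane proteins had a median of 0.24 and autophagosome formation genes one of 0.10. CTSC and ATP6V0A2 were lower with the factor (-0.24 ± 0.0421 and -0.43 ± 0.0557).

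Set against the promoter sequences shown above, the 6 members with TCACGTGA were all called higher after siMyc in 231:TKO, MCOLN1 and GALNS not in every fit with 1 library left out, with changes of 0.20 to 0.51 and a median of 0.33. The 9 with any CACGTG had a median of 0.38 and were all higher, and the 18 with none had a median of 0.25, with 12 higher and 1 lower. Outside the 37 genes, the 201 genes above 1 CPM with TCACGTGA had a median of 0.04, with 55 higher and 40 lower, the 1037 with any CACGTG had a median of -0.02, with 201 higher and 294 lower, and the 9245 without CACGTG had a median of 0.00. In parental 231 the medians were 0.29 for members with TCACGTGA, 0.38 for those with CACGTG and 0.27 for those without. No test was made of these medians.

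The second question was what the loss of TXNIP did to these genes. In untreated cells 1 of the 37 was higher and 3 were lower in 231:TKO than in parental 231, against 5.43% and 4.18% of the 19965 genes tested, and the median log2 fold change was -0.09 against 0.0048 over all genes. CTSZ was at 243 and 239 CPM in parental 231 and at 304 and 290 CPM in 231:TKO (0.29 ± 0.0592, adjusted p = 0.0444 by edgeR). MITF was at 71.9 and 69.0 CPM in parental 231 and at 21.5 and 19.6 CPM in 231:TKO (-1.79 ± 0.0841, adjusted p = 0.00297 by edgeR). LIPA, the acid lipase, went from 134 and 129 to 92.9 and 87.4 CPM (-0.55 ± 0.0646). NEU1 went from 68.3 and 62.1 to 49.7 and 49.6 CPM (-0.40 ± 0.0771). The groups did not overlap in these 4 genes. Counting these, 6 members had both 231:TKO libraries above both parental ones and 17 had them below, against 29.2% and 28.6% of all genes. With offsets for the median change in windows of 20 Mb, NEU1 stood at -0.35 and no longer passed (adjusted p = 0.112 by edgeR), and NPC1 moved from -0.35 to -0.70 and passed (adjusted p = 0.00500 by edgeR), with 1 member higher and 3 lower in all (4.23% and 4.66% of all genes). DESeq2 called 1 higher and 5 lower (6.3% and 4.92%).

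The 2 untreated 231:TKO libraries differed from each other in several of the 37 genes, as they did in TXNIP. CTSB was at 368 and 206 CPM in them against 282 and 275 CPM in parental 231, FUCA1 at 23.1 and 44.1 CPM against 40.6 and 37.03 CPM, and SQSTM1 at 272 and 175 CPM against 336 and 333 CPM. Over all genes, their deviations from the group mean had an SD of 0.302 on the log2 scale against 0.0727 for the parental pair, and SQSTM1 (-0.59 ± 0.217) did not pass by edgeR (adjusted p = 0.186) but was among the 5 that DESeq2 called lower (adjusted p = 0.0405). Each fit with 1 untreated library left out kept 1 library in a group. Its calls are counted below only to show how they moved, and only effect sizes are read from these fits. The median log2 fold change of the 37 genes ran from -0.18 to -0.040 in them. Where 1 knockout library was kept, it was assumed to vary like the parental pair. CTSB turned to -0.46 without 231:TKO replicate 1, and CTSL and NPC2 to 0.14 and 0.12 without 231:TKO replicate 2.

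In the siNT libraries more of the 37 genes differed between 231:TKO and parental 231, and mostly upward: 14 were higher and 3 lower, against 16.1% and 20.7% of the 23310 genes tested, with a median of 0.12 against -0.03 over all genes. In 17 members all 231:TKO+siNT libraries were above and in 6 below all parental 231+siNT libraries, against 23.8% and 27.7% of all genes. These 2 groups also serve as the controls of the siMyc comparisons. TPP1 was at 59.9, 76.7 and 84.5 CPM in parental 231+siNT and at 145, 152 and 155 CPM in 231:TKO+siNT (1.07 ± 0.122, adjusted p = 4.92e-05 by edgeR). CTSL was at 155, 135 and 117 CPM and at 257, 264 and 271 CPM (1.00 ± 0.106). HEXA, the α subunit of β-hexosaminidase, was at 93.1, 87.8 and 83.2 CPM and at 162, 179 and 172 CPM (0.99 ± 0.0876), but its annotated length was 12290 bases in the release used for 231:TKO and 15893 in the one used for parental 231, and the lengths of SCARB2, CTSA and CTSZ differed between the releases too. The groups did not overlap in TPP1, CTSL or HEXA. SCARB2 was higher by 0.85 ± 0.109, ASAH1 by 0.77 ± 0.0828, CTSA by 0.68 ± 0.0849, ATP6V1A by 0.63 ± 0.0902, SQSTM1 by 0.63 ± 0.0878, LAMP1 by 0.56 ± 0.0878, CTSB by 0.55 ± 0.0808, LAMP2 by 0.49 ± 0.0810, GLA by 0.45 ± 0.103, NPC2 by 0.39 ± 0.112 and NEU1 by 0.38 ± 0.0867. NPC2 no longer passed when any 1 of these 6 libraries other than parental 231+siNT replicate 1 was left out (0.32 to 0.40, adjusted p = 0.0668 to 0.0708 by edgeR). FUCA1 was lower, at 48.9, 53.9 and 48.3 CPM against 69.9, 66.7 and 66.4 CPM (-0.39 ± 0.0878), as were TFEB and MITF. The abundant CTSD (0.02 ± 0.0983) and PSAP (0.11 ± 0.0859) did not pass.

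Neighbouring genes moved with some of these values. In windows of 20 Mb the median log2 fold change of all genes above 1 CPM was 0.40 around CTSB and ASAH1 on chromosome 8, 0.23 around LAMP1 on chromosome 13, -0.42 around NEU1 and -0.39 around TFEB on chromosome 6, and -0.42 around GAA and SGSH on chromosome 17. With these medians as offsets, CTSB fell to 0.17 and no longer passed (adjusted p = 0.137 by edgeR), ASAH1 stood at 0.39, LAMP1 at 0.37, NEU1 at 0.79 and TFEB at -0.71, all 4 still past the threshold, GAA turned to 0.33 and passed, and in all 16 members were higher and 4 lower (16.1% and 18.1% of all genes). The population, the sequencing request and the annotation release cannot be told apart in this comparison.

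**Figure D4:**
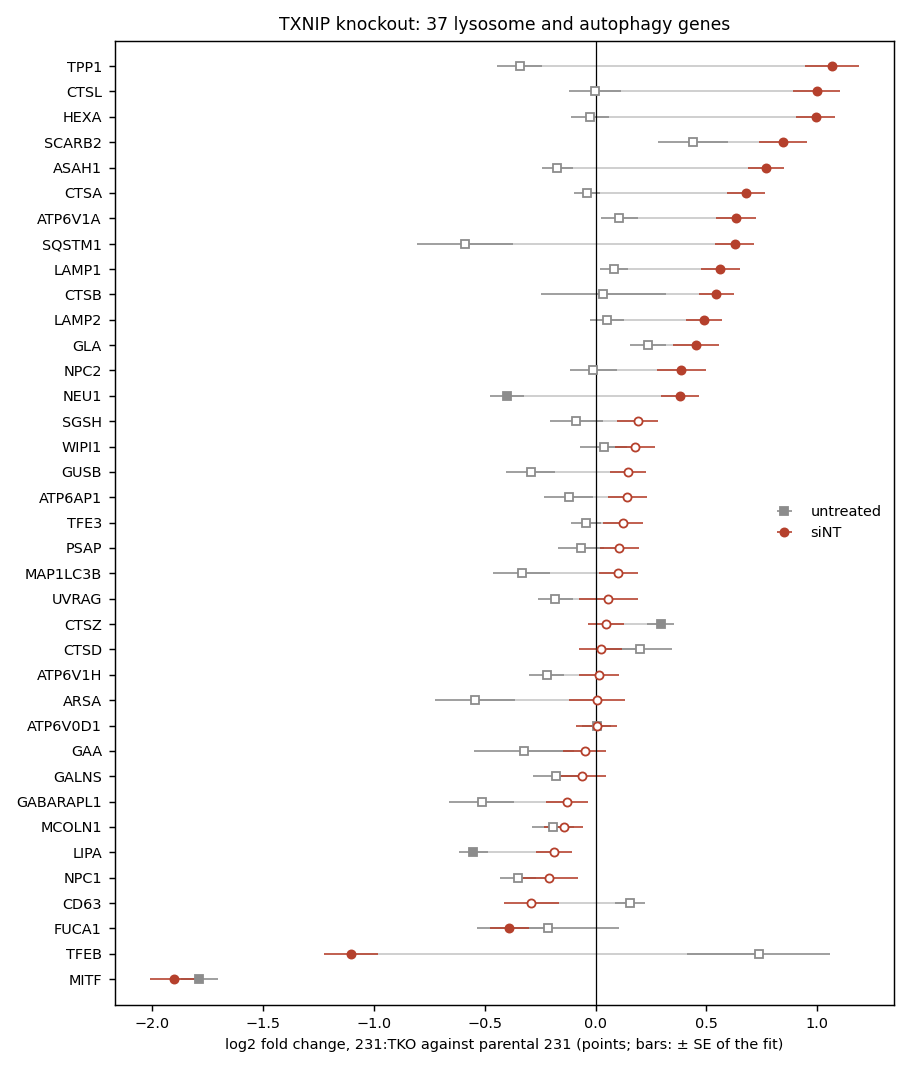
Log2 fold change (x axis) of 231:TKO against parental 231 for each of the 37 genes (rows, ordered by the siNT value) in untreated libraries (grey squares, n = 2 against 2) and siNT libraries (red circles, n = 3 against 3), with bars of ± 1 SE and filled symbols past an adjusted p-value of 0.05. The siNT values of TPP1, CTSL and HEXA are 1.07, 1.00 and 0.99 and their untreated values are -0.34, -0.0022 and -0.025. MITF is at -1.79 untreated and -1.90 with siNT.

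The knockout effects in siNT and in untreated cells share no library, and their difference was tested in 1 fit of the 10 libraries. This fit took a common variance per gene, although the 2 untreated 231:TKO libraries differed more from each other. The SE of the difference was below that of the untreated effect for SQSTM1 and TFEB, and adjusted p-values may be too small for such genes. The test was not repeated with a library left out or with a factor for parental 231+siNT replicate 1. It passed for 11 of the 37 genes, 10 with a higher value under siNT and TFEB with a lower one, against 6.2% and 7.91% of the 25112 genes tested. Over all 37 genes, whether or not they passed a test, the sign was negative untreated and positive under siNT in 17, negative in both in 8, positive in both in 10, and positive and then negative in 2. The share of all genes with each pattern was not computed. Several of the 17 were near 0 untreated, among them CTSL (-0.0022 ± 0.118), NPC2 (-0.0092 ± 0.108) and HEXA (-0.025 ± 0.0861), so their sign is uncertain. Among the 10 with a higher value under siNT, TPP1 had the largest difference, from -0.34 ± 0.101 to 1.07 ± 0.122 (difference 1.41 ± 0.183, adjusted p = 0.000132 by edgeR). SQSTM1 moved from -0.59 ± 0.217 to 0.63 ± 0.0878 (difference 1.21 ± 0.202). NEU1 passed in both settings and in opposite directions, from -0.40 ± 0.0771 to 0.38 ± 0.0867 (difference 0.78 ± 0.139). The setting differs in siRNA treatment, in reads counted singly or as pairs, in sequencing request and, for parental 231, in the annotation release, in which HEXA and CTSA differ in length, and these cannot be told apart.

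Among the regulators in the wider lists, several differed in the siNT comparison, and their values are given without window offsets. RRAGD, a Rag GTPase, was at 34.3 ± 2.50 CPM in parental 231+siNT and at 97.6 ± 0.532 CPM in 231:TKO+siNT (SD, n = 3 each, log2 fold change 1.51 ± 0.0911). FNIP1 (1.22 ± 0.152) and its partner FLCN (0.72 ± 0.106), which together regulate RRAGC and RRAGD, were higher, while RRAGA (-0.71 ± 0.0885) and RRAGB (-0.66 ± 0.1004) were lower. Of the genes for sorting of hydrolases to lysosomes, 4 of 6 were higher. They included the receptors IGF2R (1.46 ± 0.277) and M6PR (0.51 ± 0.0859) and the sorting receptor SORT1 (1.01 ± 0.119). Together the 6 sorting genes varied among the parental 231+siNT libraries, from 435 to 672 CPM, and lay at 1136 to 1146 CPM in 231:TKO+siNT. In untreated cells FLCN had been lower (-0.51 ± 0.106), and the difference between its knockout effects was 1.23 ± 0.164. Of the autophagosome formation genes 9 of 33 were lower and 2 higher under siNT, beside 16.1% higher and 20.7% lower among all genes, and of the cargo receptors 3 of 8 were lower, including TAX1BP1 (-0.59 ± 0.0820). Of all 138 genes, 37 were higher and 33 lower, beside 16.1% and 20.7% of all genes tested.

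The 3 MiT/TFE factors are the regulators in this group. TFE3 was at 117 to 156 CPM over the 16 libraries. Per kilobase of annotated length, its mean level was 29.3 to 35.4 CPM per kb in the 6 groups, against 0.546 to 3.02 for TFEB and 1.02 to 9.85 for MITF. TFEB was at 3.26 and 4.08 CPM in parental 231 and at 4.47 and 7.83 CPM in 231:TKO (0.74 ± 0.324, adjusted p = 0.235 by edgeR). In the siRNA libraries its order was the reverse, at 19.4, 15.8 and 16.6 CPM in parental 231+siNT and at 8.18, 8.38 and 6.91 CPM in 231:TKO+siNT (-1.10 ± 0.121, adjusted p = 3.68e-05 by edgeR). The untreated groups did not overlap, but the 2 untreated 231:TKO libraries differed from each other. The siNT groups were well separated, and the 2 knockout effects differed by -1.84 ± 0.301 (adjusted p = 0.000804 by edgeR).

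After siMyc, TFEB rose in 231:TKO to 12.4, 11.0 and 10.5 CPM (0.50 ± 0.0960), and it was at 19.8, 18.5 and 22.7 CPM in parental 231 (0.25 ± 0.125, adjusted p = 0.426 by edgeR and 0.00169 with the factor). MITF was lower in the knockout in both settings, at 25.8, 27.9 and 30.9 CPM in parental 231+siNT against 7.14 to 7.51 CPM in 231:TKO+siNT (-1.90 ± 0.107). After siMyc it was at 7.26, 7.26 and 7.32 CPM in 231:TKO, within the range of the siNT libraries (-0.05 ± 0.0900). The genes of pigment cells that MITF is known to activate were at or near 0, with TYR and MLANA at 0 in every library. TFE3 had a value of 0.13 ± 0.0549 after siMyc in 231:TKO (adjusted p = 0.0800 by edgeR) and of 0.28 ± 0.0934 in parental 231 (adjusted p = 0.213 by edgeR and 7.13e-07 with the factor).

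**Figure D5:**
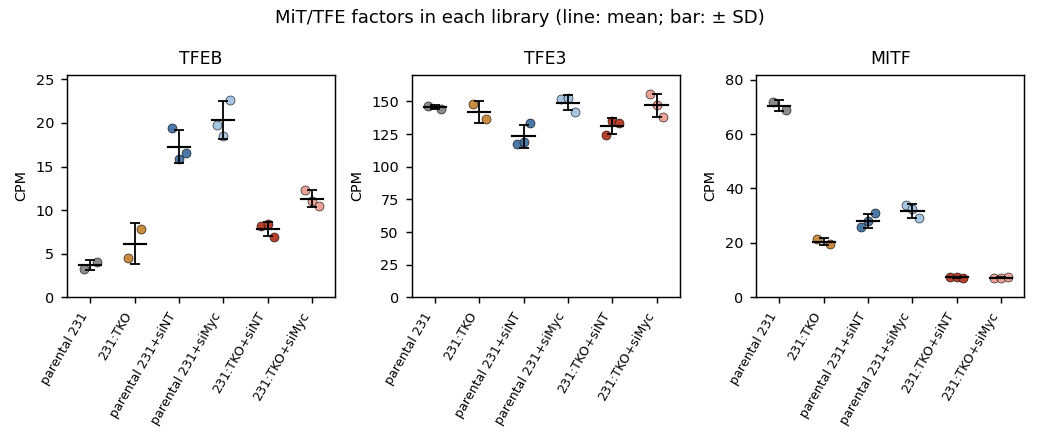
Level in CPM (y axes, starting at 0) of TFEB, TFE3 and MITF in each of the 16 libraries, with the mean (line) and SD (bar) of each group. MITF is lower in every 231:TKO library than in the parental 231 libraries of the same treatment, TFEB is lower in 231:TKO among siRNA libraries, and TFE3 stays between 117 and 156 CPM.

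Levels of the 37 genes also differed between the untreated and the siNT libraries of the same cells. They were higher in parental 231+siNT than in parental 231 for 28 of 37 genes, with a median difference of 0.73 on the log2 scale against 0.10 over 13448 genes above 1 CPM, and in 231:TKO+siNT than in 231:TKO for 33 of 37, with a median of 0.76 against -0.01. SQSTM1 was 2.91-fold higher in parental 231 and 6.56-fold higher in 231:TKO, NEU1 was 3.14-fold and 5.24-fold higher, CTSD 3.41-fold and 2.93-fold, and TFEB 4.70-fold and 1.27-fold. MITF was lower in both, at 0.400 and 0.358 of the untreated level, and ATP6V1A at 0.481 and 0.672. No test was made, because the siRNA treatment, the read layout, the sequencing request and, for parental 231, the annotation release changed together and cannot be told apart. Per kilobase, PSAP had the highest mean level of the 37 in all 6 groups, at 173 to 746 CPM per kb.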

How the data were processed

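Total RNA of MDA-MB-231 cells was used for RNA-seq, and the authors deposited raw counts per Ensembl gene, made by alignment to GRCh38 with STAR (version not given in the sources used here) and counting with featureCounts 1.6.3. Per the file headers, a later Ensembl release was used for the parental siRNA libraries than for the others. Gene identifiers were matched to symbols, and 3 counts correspond to 0.0502 to 0.158 CPM. The members and gene lists were chosen with earlier results of these data known.

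Genes with more than 5 counts over the libraries of a comparison were tested with edgeR 4.0.16 (R 4.3.3; TMM normalization, quasi-likelihood test, Benjamini-Hochberg adjustment over all genes tested, threshold 0.05), after the procedure had been tested on simulated data. The SE is the fold change divided by the square root of the F statistic. DESeq2 1.42.0, other filters and thresholds, size factors, left-out libraries, 20 Mb window offsets and a replicate block were the alternatives. The test of the difference between knockout effects, the factor for 2 libraries and the fits without them were chosen after seeing the data. Replicates are separate samples by their labels, and nothing in the sources used here says whether they were separate cultures, so p-values measure the spread between these samples. Genes of the wider lists were named where they passed and had the largest changes in each direction of their list, with a mean of at least 1 CPM, up to a pair each way, and others named beside them were chosen after their values were seen.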

Additional observations from a re-analysis of the deposited data

Results flagged for a closer look

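The effect of the knockout differed between siNT-treated and untreated cells in 11 of the 37 genes, by the test of the difference itself (edgeR, adjusted p at most 0.05). That test took a common variance per gene over groups of unlike spread, so p-values may be too small for genes such as SQSTM1 and TFEB. It was made without window offsets, although window medians differed between the settings around some genes. The log2 difference, siNT minus untreated, was 0.48 for LAMP1, 0.44 for LAMP2, 0.71 for CTSA, 1.00 for CTSL, 1.41 for TPP1, 1.01 for HEXA, 0.78 for NEU1, 0.94 for ASAH1, 0.53 for ATP6V1A, 1.21 for SQSTM1 and -1.84 for TFEB. Of the other 26 genes, which did not pass, CD63, CTSZ, CTSD and FUCA1 had values of -0.45, -0.25, -0.18 and -0.18. Treatment, read layout, sequencing request and, for parental 231, the annotation release, in which HEXA and CTSA differ in length, changed together between the settings and cannot be told apart.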

How the results depend on the processing

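The rise after siMyc in 231:TKO kept its direction in every alternative run: with 1 library left out the median ranged from 0.31 to 0.36, with 28 to 31 genes higher, and 0 to 1 lower, since GLA was lost without 231:TKO+siNT replicate 1. Among the higher genes, MCOLN1 was lost in 4 of these 6 fits and GALNS without 231:TKO+siNT replicate 3 (adjusted p = 0.0529 by edgeR). The count fell to 5 higher and 0 lower where a log2 fold change of 0.5 was asked, and GLA was also lost, leaving 0 lower, in 1 fit of all 12 siRNA libraries. In parental 231 the 0 genes higher became 21 in that 12-library fit (2.8% of all genes), 14 with DESeq2, 32 with the factor and 30 without the 2 libraries that stood apart, with 1 lower in each of the last 2. With 1 library left out the parental median ranged from 0.27 to 0.31, with 0 called. The difference between the responses had a median of 0.08, of 0.045 with DESeq2 and with its size factors (0.045), of 0.017 to 0.092 with 1 library left out (0 called), and of -0.00059 without the 2 libraries. In untreated cells the 1 higher gene became 0 at an adjusted p of 0.01 and at a log2 fold change of 0.5, the 3 lower became 5 with DESeq2 and 1 at 0.01, and with 1 library left out the counts ran from 0 to 9 higher and 0 to 18 lower and the median from -0.18 to -0.040. Those untreated fits with 1 library left out kept 1 library in a group, so their counts are not read as differences between the populations. Without 231:TKO replicate 1 CTSB reversed to -0.46, against 0.39 without replicate 2. Without replicate 2 CTSL and NPC2 reversed to 0.14 and 0.12, against -0.19 for CTSL without replicate 1. For siNT, window offsets gave a median of 0.17 and reversed GAA to 0.33, and with 1 library left out the median ran from 0.10 to 0.20, with 13 to 18 higher and 3 to 5 lower, 5 being without parental 231+siNT replicate 1, and NPC2 was lost in 5 of these 6 fits. The causes were not tested.

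Replicate numbers did not pair the samples: the deviations of same-numbered libraries correlated at -0.18 to 0.36 in 231:TKO siRNA libraries and at -0.88 to 0.74 in parental ones. With a replicate block, 32 genes were higher after siMyc in 231:TKO with a median of 0.33, 0 in parental 231, 14 in the siNT comparison and 0 in untreated cells. The share of all genes called is not given for these fits or for those with a library left out. Their counts show only how the counts of the main fits moved.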
